A study of Mus musculus with 8 samples.

Results

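The genes described here are 48 components of the Wnt and beta-catenin pathway, chosen by name: ligands, receptors, the R-spondin receptor arm, secreted inhibitors, the cytoplasmic relay, the nuclear partners of beta-catenin and 5 of its target genes. They are 48 of 30325 gene names on the array and were represented by 73 probes. Of the 48, 38 were bright enough to test, among 19534 genes tested in all. The 8 arrays, 1 per mouse, held RNA of jejunal lower crypts cut out by laser capture. The fasted group was 4 mice deprived of food for 24 h, and the fed group was 4 mice that kept theirs. Mice of both groups carried 1 Lgr5EGFP-IRES-CreERT2 allele, which puts a reporter and an inducible recombinase into the stem cell gene Lgr5, and were 4 to 6 weeks old, labelled as 2 males and 2 females per group. Every mouse was given etoposide, a drug that traps topoisomerase II on broken DNA, at 80 mg/kg by tail vein, and was sampled after 3 h. Food was moistened and offered again after the injection, so fasting and the return of food cannot be told apart. No array came from a mouse without the drug.

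Wnt proteins are lipid-modified ligands that bind a Frizzled receptor together with LRP5 or LRP6. Dishevelled then disables a complex of APC, AXIN1, GSK3B and casein kinase 1 that otherwise marks beta-catenin for destruction, and the spared beta-catenin joins TCF factors on DNA to switch on target genes. In the intestine this signal, strengthened by R-spondins acting through LGR receptors, keeps crypt base stem cells dividing and sets the position of Paneth cells, which themselves supply WNT3 in the mouse.

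Levels are the log2 processed signal of a probe minus the 75th percentile of its array, so that 0 is that percentile and each unit is a doubling. They describe a probe and do not rank genes against each other. Because the tissue is a mixture, fewer cells of a type and less RNA per cell cannot be told apart. On the fasted arrays 53.6% to 65.7% of probes exceeded background clearly, against 53.2% to 62.8% on the fed arrays. One array, fasted replicate 3, lay apart from the rest: its correlations with the other 7 arrays across genes ran from 0.824 to 0.924, and no other array was scanned on the later day. Of probes well above background on all arrays but 1, 51.5% were missing on fasted replicate 3. Fed replicate 4, labelled female, had Xist at -6.01, not well above background, and the Y-linked Eif2s3y at -1.39, which goes against its label. For the members with the smallest p and the central genes, differences without each of these arrays follow the value with all 8. The labels name no cage or day, and the p-values measure the spread between these 8 mice.

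Probe sequences are shown for Fzd5, the receptor with the tightest fasted values, and Fzd7, the receptor with the widest spread, since the probe is what each level reads. The Fzd5 probe lies on chromosome 1, minus strand (chr1:64781972-64782030), and the Fzd7 probe on the plus strand of the same chromosome (chr1:59541367-59541426), both in mm9 as the files give it.
Fzd5 probe: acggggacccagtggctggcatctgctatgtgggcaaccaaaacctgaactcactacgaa
Fzd7 probe: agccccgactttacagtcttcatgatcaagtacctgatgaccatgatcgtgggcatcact

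Promoters of a pair of target genes are shown because a target gene reads the pathway's output, and the fasted and fed values of both are given further on. The sequences are the 250 bases before the start site in RefSeq, build GRCm38.p6, plus strand, for Axin2 (chr11:108920099-108920348) and Sp5 (chr2:70474673-70474922). Capitals mark CTTTGA or CTTTGT on either strand, the 6-letter core that TCF factors are known to bind, and the matches do not overlap each other.
Axin2 promoter: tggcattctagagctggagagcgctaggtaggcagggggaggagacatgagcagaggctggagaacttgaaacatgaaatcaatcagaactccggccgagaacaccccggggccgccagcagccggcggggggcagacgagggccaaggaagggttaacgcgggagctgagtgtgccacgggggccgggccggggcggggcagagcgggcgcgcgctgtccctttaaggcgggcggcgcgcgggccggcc
Sp5 promoter: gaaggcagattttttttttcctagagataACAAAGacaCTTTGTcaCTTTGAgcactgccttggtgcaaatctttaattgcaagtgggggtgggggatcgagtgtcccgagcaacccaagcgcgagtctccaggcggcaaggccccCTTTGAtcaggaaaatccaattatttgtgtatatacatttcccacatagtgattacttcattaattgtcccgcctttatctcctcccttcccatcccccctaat
The Sp5 window held 4 matches, at -221, -212, -204 and -104 from the start site, and the Axin2 window held 0. At least 4 matches were found in 0.0944% of 32851 promoters, and among the 32 members with a promoter in the table Sp5 was the only such gene. CTTTGA stood in 13.8% of all promoters, CTTTGT in 16.5% and either in 27.6%. The 32 members had 45 promoters, of which 10, belonging to 9 members, held at least 1 of them. A match is a string of letters and was not tested as a binding site.

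No Wnt pathway gene passed the test between fasted and fed crypts, by limma with Benjamini-Hochberg adjustment over 19534 genes. None of 38 tested members passed an adjusted p of 0.05, and neither did any other gene (0.0% of 19534). At an unadjusted p under 0.05 there was 1 member, Dvl2 (2.63% of 38), against 1161 genes in all (5.94%). It was higher in fasted crypts, where 3.93% of all genes were past that p, and 0 members were lower, against 2.02% of all genes. Adjusted p over the members ran from 0.787 to 0.991.

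The members were spread about evenly around no difference. Fasted crypts had the higher fitted value for 20 of 38 members (52.6%), against 44.5% of all genes tested. Their median log2 difference, fasted minus fed, was 0.03, against -0.06 over all genes. An absolute log2 difference above 1 was found for 4 members, Fzd7 and Nkd1 on the higher side and Wnt5a and Wnt6 on the lower side (10.5%, against 7.34% of all genes). None of these 4 was well above background on all 8 arrays. Groups that did not overlap were found for 1 member, Cd44 (2.63%, against 5.08% of all genes). The standard errors of the members' differences ran from 0.16 to 1.26 with a median of 0.32, against a median of 0.35 over all genes.

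**Figure D1:**
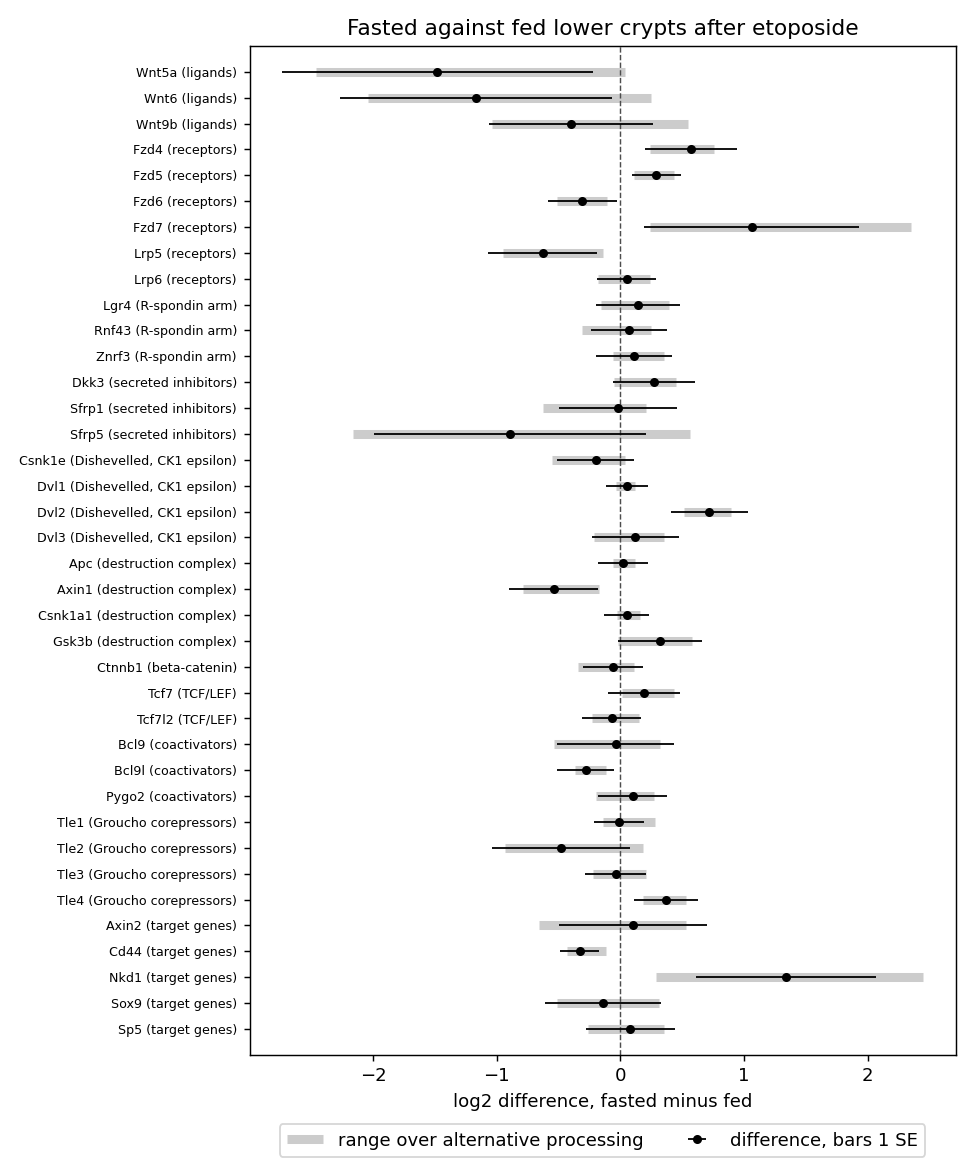
Log2 difference, fasted minus fed, of the 38 tested Wnt pathway genes ordered by role (points), with 1 SE (black bars) and the range over 24 alternative ways of processing (grey bars). Dvl2, at 0.72, is the only gene with an unadjusted p under 0.05, and the widest bars belong to Wnt5a, Wnt6, Sfrp5, Fzd7 and Nkd1.

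Of the ligands and their processing, 3 of 5 genes could be tested. Wnt3, the Paneth cell ligand, was well above background on 0 of 8 arrays and was not tested. Porcn, the acyltransferase that attaches the lipid, was so on 1 fed array and was not tested either. Wnt5a, a ligand best known for signalling without beta-catenin and made mostly by mesenchyme, was read at chr14:29336664-29336723. Its level was -2.06, 0.20, -5.49 and 0.38 on the 4 fasted arrays, against -1.04, -1.27, 0.73 and 0.51 on the 4 fed arrays. The groups overlapped, and fasted replicate 3, not well above background, lay far below the rest. Fasted crypts averaged -1.74 ± 2.74 and fed crypts -0.27 ± 1.03 (SD, n = 4 each), a log2 difference of -1.48 (SE 1.26; adjusted p = 0.798, limma with Benjamini-Hochberg). Without fasted replicate 3 the difference was 0.04, and without fed replicate 4 it was -1.18.

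Wnt6, an epithelial ligand in the mouse crypt, was spread in the same way. Its level was -1.65, -0.24, -5.25 and 0.01 on the fasted arrays, against -1.27, -1.28, -0.07 and 0.15 on the fed arrays. The log2 difference was -1.17 (SE 1.1) with all arrays and 0.18 without fasted replicate 3. Wnt9b, another epithelial ligand, had -1.21, -1.12, -3.14 and 0.33 in fasted crypts, against -0.73, -1.33, -0.69 and -0.80 in fed crypts. Here too fasted replicate 3 was lowest and the groups overlapped. Its difference was -0.40 (SE 0.66), and 0.35 without that array. All 3 ligands tested thus had a lower fasted mean, and all 3 had a positive difference once 1 array was left out.

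The receptors included the member with the tightest fasted values. Fzd5, a Frizzled of the crypt epithelium known to be needed for Paneth cell maturation in the mouse, had levels of 3.69, 3.58, 3.54 and 3.67 on the fasted arrays, against 2.85, 3.66, 3.39 and 3.43 on the fed arrays. Fed replicate 1 was lowest, and fed replicate 2 lay within the fasted range. The mean was 3.62 ± 0.07 in fasted crypts and 3.33 ± 0.34 in fed crypts (SD, n = 4 each), a log2 difference of 0.29 (SE 0.20; adjusted p = 0.787, limma with Benjamini-Hochberg), and a second probe gave 0.31 (SE 0.23). The first was 0.33 without fasted replicate 3, 0.31 without fed replicate 4 and 0.11 without fed replicate 1.

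Fzd7, the Frizzled linked to Lgr5 stem cells in the mouse, was read by the second probe printed above. It had -3.87, -3.44, -1.76 and -2.90 in fasted crypts, all 4 well above background, against -2.35, -3.83, -6.27 and -3.79 in fed crypts, of which 2 were. The groups overlapped, with fasted replicate 3 above every fed array and fed replicate 3 below every fasted array. The log2 difference was 1.06 (SE 0.87; adjusted p = 0.794, limma with Benjamini-Hochberg). It was 0.51 without fasted replicate 3, 1.23 without fed replicate 4 and 0.24 without fed replicate 3, the lowest array. It was 0.32 with normexp background correction and 2.35 in the authors' deposited matrix. Another Fzd7 probe was well above background on 0 arrays. Fzd4 (chr7:96557478-96557537), a receptor also used by Norrin in blood vessels, had -2.69, -2.02, -2.19 and -2.89 in fasted crypts, against -2.66, -2.85, -3.01 and -3.56 in fed crypts. Its difference was 0.57 (SE 0.37; adjusted p = 0.787, limma with Benjamini-Hochberg), 0.40 without fasted replicate 3, 0.43 without fed replicate 4 and 0.24 with normexp.

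Fzd6 (chr15:38869107-38869166), a receptor of planar polarity, went the other way, with -1.03, -1.72, -0.93 and -1.35 in fasted crypts against -0.69, -0.82, -1.04 and -1.23 in fed crypts. The groups overlapped and the difference was -0.31 (SE 0.28; adjusted p = 0.803 by limma), -0.45 without fasted replicate 3 and -0.41 without fed replicate 4. Without fasted replicate 2 it was -0.11. Fzd1, Fzd3 and Fzd8 were well above background on 0 arrays, Fzd2 on 1 fasted array, and these 4 were not tested.

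The co-receptors were read on all arrays. Lrp5 (chr19:3584971-3585030) had 1.19, 2.01, 0.48 and 2.37 in fasted crypts, against 2.31, 1.53, 2.14 and 2.60 in fed crypts. Fasted replicates 1 and 3 lay below every fed array and the other 2 fasted arrays lay among them. The log2 difference was -0.63 (SE 0.44; adjusted p = 0.787 by limma), -0.19 without fasted replicate 3 and -0.48 without fed replicate 4. Lrp6, its close relative, had 3.08, 2.79, 3.40 and 2.81 in fasted crypts, against 3.45, 2.66, 2.82 and 2.95 in fed crypts, a difference of 0.05 (SE 0.24).

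**Figure D2:**
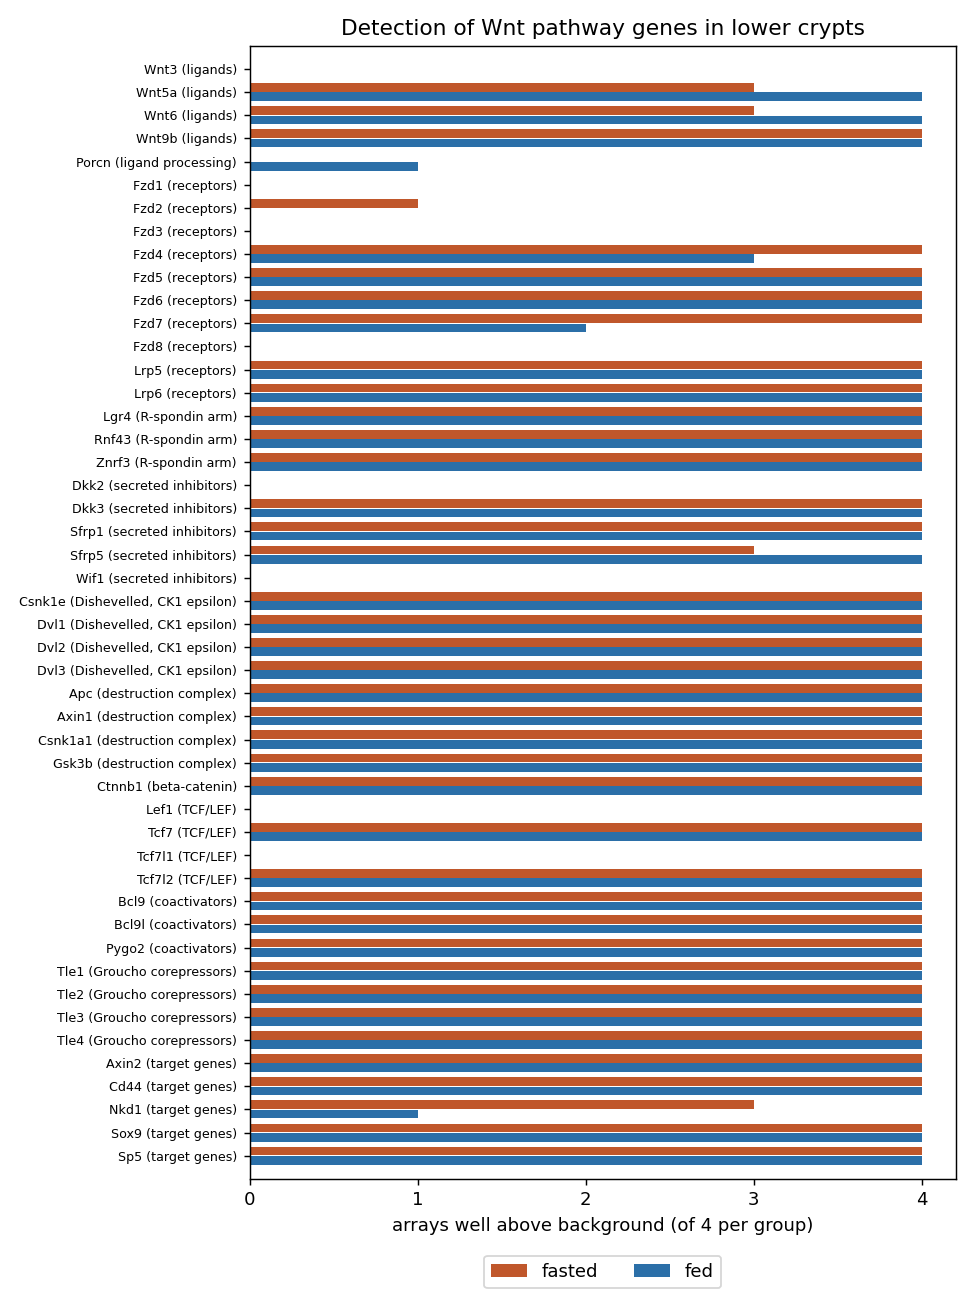
Number of arrays, of 4 fasted (upper bar) and 4 fed (lower bar), on which the probe of each of the 48 Wnt pathway genes was well above background. Genes without a bar were above background on no array, and 32 genes were above background on all 8.

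The R-spondin arm sets how much Frizzled stays at the cell surface. Lgr4, a receptor for R-spondins (chr2:109853567-109853626), had -0.88, -1.31, -0.57 and -1.36 in fasted crypts, against -0.43, -1.35, -1.30 and -1.58 in fed crypts. Rnf43 (chr11:87548958-87549017), a ligase that removes Frizzled and is itself a Wnt target, had 2.04, 1.65, 2.15 and 1.07 in fasted crypts, against 2.25, 1.73, 1.73 and 0.92 in fed crypts. Znrf3 (chr11:5180918-5180977), the other such ligase, had -1.05, -1.76, -2.05 and -1.55 in fasted crypts, against -1.13, -1.94, -1.93 and -1.85 in fed crypts. In all 3 the fed values ran across nearly the whole fasted range. The log2 differences were 0.14 (SE 0.34) for Lgr4, 0.07 (SE 0.31) for Rnf43 and 0.11 (SE 0.31) for Znrf3, with adjusted p of 0.923, 0.960 and 0.934 by limma with Benjamini-Hochberg. For Lgr4 the value was -0.09 without fasted replicate 3 and 0.01 without fed replicate 4. For Rnf43 it turned without either array, to -0.19 and -0.13. Znrf3 was at 0.21 without fasted replicate 3 and 0.13 without fed replicate 4, and turned without fasted replicate 1, to -0.03, and without fed replicate 2, to -0.06.

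Among the secreted inhibitors, Sfrp5, a decoy that binds Wnts, had -1.23, -1.0, -5.99 and -0.62 in fasted crypts, against -1.48, -1.94, -1.1 and -0.76 in fed crypts. Fasted replicate 3 was again the lowest and the only array not well above background. The difference was -0.89 (SE 1.1), and 0.48 without that array. Sfrp1, a related decoy, had -2.34, -2.04, -1.40 and -1.88 in fasted crypts, against -1.40, -1.59, -1.37 and -3.20 in fed crypts, where fed replicate 4 was lowest. Its difference was -0.02 (SE 0.48), and -0.52 without fed replicate 4. Dkk3, a divergent Dickkopf protein, had -0.05, -0.72, -0.40 and -0.93 in fasted crypts, against -0.26, -0.72, -0.58 and -1.63 in fed crypts, a difference of 0.27 (SE 0.33). Dkk2, which blocks LRP6, and Wif1, which binds Wnts, were well above background on 0 arrays.

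Dvl2, a Dishevelled that relays the signal from Frizzled, had the smallest p of the members (chr11:69825744-69825803). Its level was 0.04, -0.67, -0.43 and -0.91 on the fasted arrays, against -0.64, -1.60, -1.14 and -1.47 on the fed arrays. The 4 fasted arrays lay above 3 of the 4 fed arrays, and fed replicate 1 lay within the fasted range. Fasted crypts averaged -0.49 ± 0.41 and fed crypts -1.21 ± 0.43 (SD, n = 4 each). The log2 difference was 0.72 (SE 0.31), a 1.65-fold higher level, with an unadjusted p of 0.0485 and an adjusted p of 0.787 by limma with Benjamini-Hochberg. The fasted array was higher by 0.68, 0.48 and 0.56 on the 3 slides that held both groups. Without fasted replicate 3 the difference was 0.64, and without fed replicate 4 it was 0.67. The unadjusted limma p was then 0.0756 and 0.108, past the threshold in neither case. A second Dvl2 probe was well above background on 0 arrays.

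The other Dishevelled genes did not share that pattern of values. Dvl1 had 1.77, 1.79, 2.04 and 1.80 in fasted crypts, against 1.56, 1.90, 1.89 and 1.86 in fed crypts, a difference of 0.05 (SE 0.17). Dvl3 had -0.31, -0.74, 0.44 and -0.69 in fasted crypts, against 0.10, -0.38, -0.93 and -0.55 in fed crypts, a difference of 0.12 (SE 0.35). Csnk1e, casein kinase 1 epsilon, which phosphorylates Dishevelled, had 0.80, 0.18, 1.27 and 1.03 in fasted crypts, against 1.33, 1.22, 1.1 and 0.45 in fed crypts. Its difference was -0.20 (SE 0.31). Whether Dvl2 differed from its relatives in response was not tested.

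**Figure D3:**
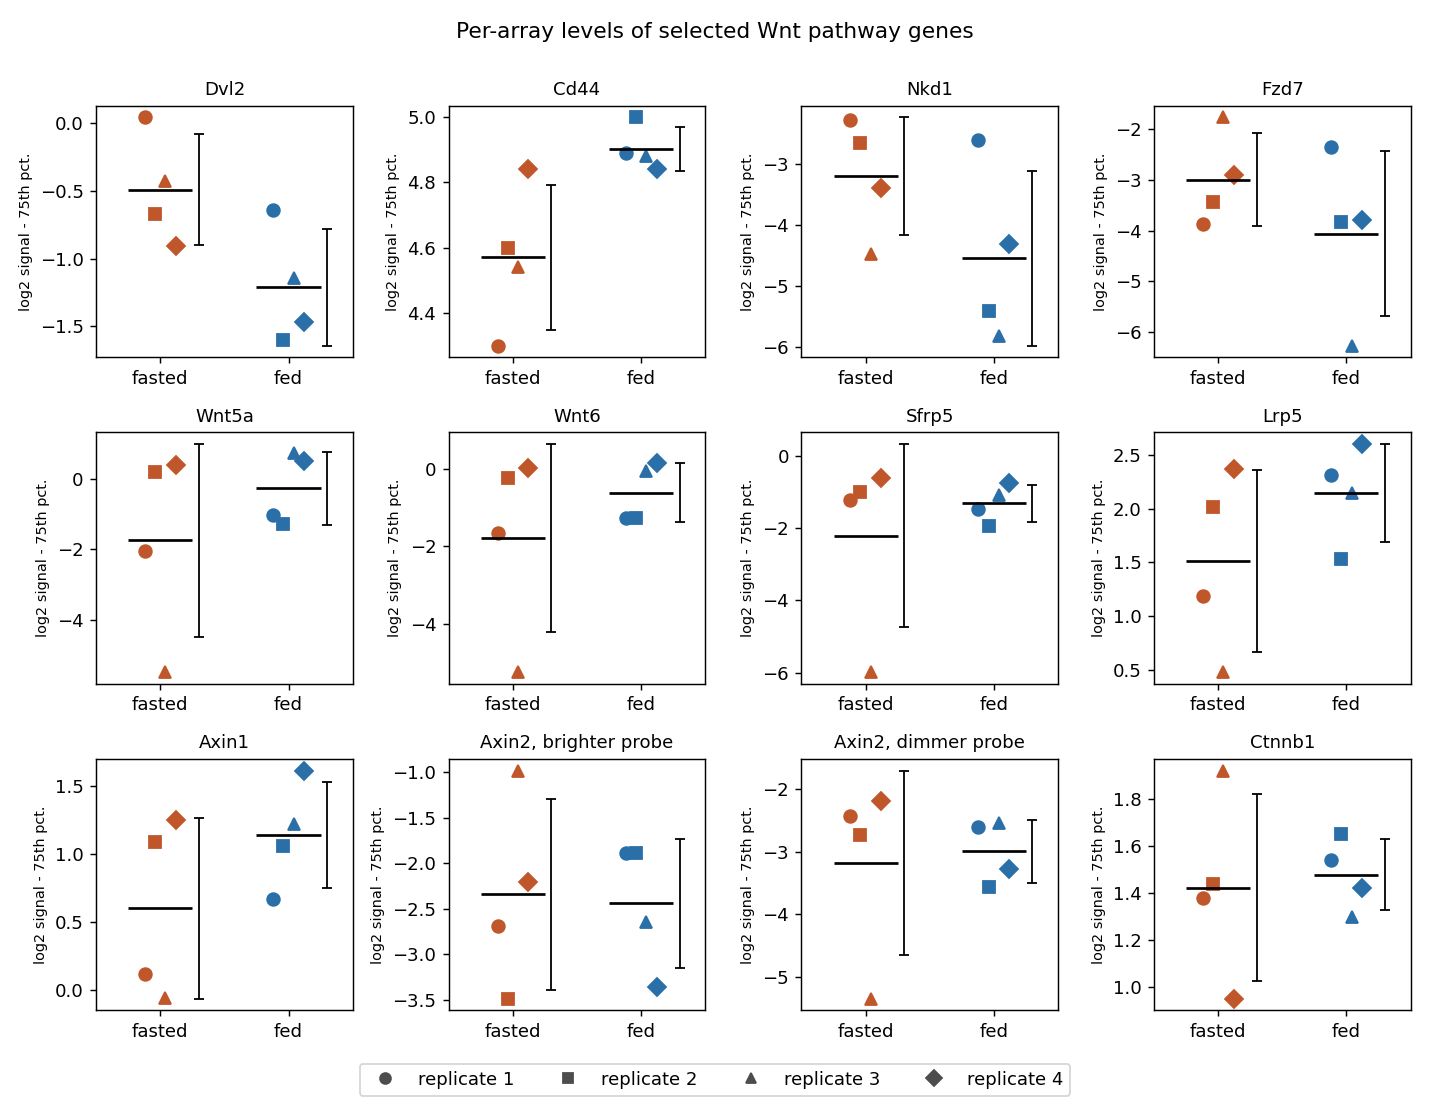
Level on each array (log2 signal minus the array's 75th percentile) of 11 selected Wnt pathway genes, with both Axin2 probes, fasted on the left and fed on the right of each panel. Symbols mark the replicate number, horizontal lines the group mean and bars 1 SD (n = 4). Dvl2 is higher on the fasted arrays apart from fed replicate 1, Cd44 is lower, and the Wnt5a, Wnt6 and Sfrp5 panels each hold a single low point, fasted replicate 3.

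In the destruction complex, Axin1, its scaffold (chr17:26332106-26332165), had 0.12, 1.09, -0.06 and 1.25 in fasted crypts, against 0.67, 1.06, 1.22 and 1.61 in fed crypts. Fasted replicates 1 and 3 lay below all fed arrays and the other 2 fasted arrays lay among them, as for Lrp5. The log2 difference was -0.54 (SE 0.36; adjusted p = 0.787, limma with Benjamini-Hochberg), -0.22 without fasted replicate 3 and -0.41 without fed replicate 4. Gsk3b, the kinase that marks beta-catenin, had 1.62, 1.41, 2.27 and 1.08 in fasted crypts, against 2.05, 1.24, 0.87 and 0.92 in fed crypts, a difference of 0.32 (SE 0.34). It was -0.01 without fasted replicate 3.

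Apc, the tumour suppressor of the complex, and Csnk1a1, its priming kinase, were among the steadiest members by their brightest probes. Apc had -0.04, 0.32, 0.37 and 0.19 in fasted crypts, against 0.32, 0.20, 0.13 and 0.12 in fed crypts. Csnk1a1 had 1.55, 1.5, 1.82 and 1.64 in fasted crypts, against 1.40, 1.75, 1.54 and 1.63 in fed crypts. Their differences were 0.02 (SE 0.20) and 0.05 (SE 0.18). Second, dimmer probes gave -0.09 (SE 0.28) for Apc and 0.27 (SE 0.33) for Csnk1a1.

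Ctnnb1, which encodes beta-catenin (chr9:120869274-120869333), had 1.38, 1.44, 1.92 and 0.95 in fasted crypts, against 1.54, 1.65, 1.30 and 1.42 in fed crypts. The fed values lay inside the fasted range. The mean was 1.42 ± 0.40 in fasted crypts and 1.48 ± 0.15 in fed crypts (SD, n = 4 each), a log2 difference of -0.06 (SE 0.24; adjusted p = 0.957, limma with Benjamini-Hochberg). It was -0.28 without fasted replicate 3 and -0.06 without fed replicate 4. Beta-catenin is regulated mainly through its stability, which an mRNA level does not show.

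Its DNA-binding partners were read in part. Tcf7l2, the main TCF of the intestinal epithelium (chr19:55817272-55817331), had 3.31, 3.21, 4.43 and 3.98 in fasted crypts, against 3.19, 4.00, 3.84 and 4.16 in fed crypts, a difference of -0.07 (SE 0.24; adjusted p = 0.950 by limma), -0.21 without fasted replicate 3 and -0.06 without fed replicate 4. A second Tcf7l2 probe gave -0.34 (SE 0.32). Tcf7 had -0.11, 0.01, 0.24 and -0.35 in fasted crypts, against 0.50, -0.47, -0.51 and -0.46 in fed crypts. Fed replicate 1 was the highest of all 8 and the other 3 fed arrays the lowest, and the difference was 0.19 (SE 0.29). Tcf7l1 and Lef1 were well above background on 0 arrays.

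Coactivators and corepressors of the TCF complex were read on all arrays. Bcl9l, which tethers Pygopus to beta-catenin (chr9:44317916-44317975), had -1.03, -1.16, -1.34 and -0.82 in fasted crypts, against -0.76, -0.97, -0.82 and -0.68 in fed crypts, a difference of -0.28 (SE 0.23; adjusted p = 0.795 by limma). Without fasted replicate 3 it was -0.17 and without fed replicate 4 it was -0.24. Its paralogue Bcl9 had 1.0, 0.43, 2.67 and 1.14 in fasted crypts, against 1.63, 1.78, 0.75 and 1.23 in fed crypts, a difference of -0.04 (SE 0.47). Pygo2, a chromatin reader of the same complex, had 0.89, 0.78, 2.10 and 1.02 in fasted crypts, against 0.96, 1.21, 1.12 and 1.11 in fed crypts, a difference of 0.10 (SE 0.28). Bcl9 and Pygo2 were both highest on fasted replicate 3, and without it their differences were -0.54 and -0.19. A second, dimmer Bcl9 probe gave 0.03 (SE 0.39) with all arrays.

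The Groucho corepressors, which TCF factors carry when beta-catenin is absent, had differences of both signs. Tle4 (chr19:14524206-14524265) had 0.86, 0.37, 0.79 and 0.04 in fasted crypts, against 0.15, 0.23, -0.18 and 0.36 in fed crypts, a difference of 0.37 (SE 0.26; adjusted p = 0.787 by limma). It was 0.24 without fasted replicate 3 and 0.49 without fed replicate 4. Tle2 had 3.5, 4.69, 2.53 and 4.81 in fasted crypts, against 3.42, 4.05, 4.99 and 4.98 in fed crypts. Its difference was -0.48 (SE 0.56) with all arrays and 0.15 without fasted replicate 3. Tle1 and Tle3 had differences of -0.01 (SE 0.20) and -0.04 (SE 0.25). The 3 further Tle1 probes gave 0.12 (SE 0.38), 0.51 (SE 0.27) and 0.48 (SE 0.48).

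The target genes read the output of the pathway. Cd44, an adhesion receptor of crypt cells and a beta-catenin target (chr2:102651398-102651457), had 4.30, 4.60, 4.54 and 4.84 in fasted crypts, against 4.89, 5.0, 4.88 and 4.84 in fed crypts. The fasted values lay below the fed values, by a gap of 0.00376 between the nearest arrays. Fasted crypts averaged 4.57 ± 0.22 and fed crypts 4.90 ± 0.07 (SD, n = 4 each), a log2 difference of -0.33 (SE 0.16). The unadjusted p was 0.0681 and the adjusted p 0.787 by limma with Benjamini-Hochberg. All 4 Cd44 probes had a lower fasted mean, with differences of -0.33, -0.45, -0.31 and -0.56. Without fasted replicate 3 the first of these was -0.31, and without fed replicate 4 it was -0.37. It was -0.19 after quantile scaling and in the authors' deposited matrix, and -0.12 with normexp.

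Axin2, a direct target that feeds back on the destruction complex, gave probe-dependent values. The brighter probe (chr11:108803927-108803986) had -2.69, -3.49, -0.98 and -2.20 in fasted crypts, against -1.88, -1.88, -2.64 and -3.36 in fed crypts. The dimmer probe had -2.43, -2.73, -5.36 and -2.19 in fasted crypts, against -2.60, -3.56, -2.54 and -3.28 in fed crypts. Fasted replicate 3 was the highest array by the first probe and the lowest by the second. The log2 differences were 0.10 (SE 0.60; adjusted p = 0.972, limma with Benjamini-Hochberg) and -0.19 (SE 0.72), and the first was -0.41 without fasted replicate 3 and -0.31 without fed replicate 4.

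Sp5, whose promoter is printed above, had 0.64, -0.38, 0.57 and -0.28 in fasted crypts, against 0.77, -0.01, -0.02 and -0.51 in fed crypts, a difference of 0.08 (SE 0.36). Sox9 (chr11:112648809-112648868), a transcription factor of crypt base and Paneth cells, had 0.23, -0.79, 0.27 and -0.53 in fasted crypts, against 1.21, -0.60, -0.17 and -0.70 in fed crypts, a difference of -0.14 (SE 0.47; adjusted p = 0.946 by limma). Without fasted replicate 3 it was -0.39, without fed replicate 4 -0.34 and without fed replicate 1, its highest array, 0.31. Both had their highest value on fed replicate 1.

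Nkd1, a target that restrains Dishevelled (chr8:91118468-91118527), cleared background on 3 arrays of fasted and 1 of fed mice, the fewest that the filter allowed. It had -2.28, -2.65, -4.48 and -3.39 in fasted crypts, against -2.61, -5.41, -5.83 and -4.32 in fed crypts. The difference was 1.34 (SE 0.73; adjusted p = 0.787, limma with Benjamini-Hochberg), 1.60 without fasted replicate 3 and 1.69 without fed replicate 4. It was 0.74 without fed replicate 2, 0.29 with normexp and 2.45 in the authors' deposited matrix. The groups overlapped through fed replicate 1 and fasted replicate 3.

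**Figure D4:**
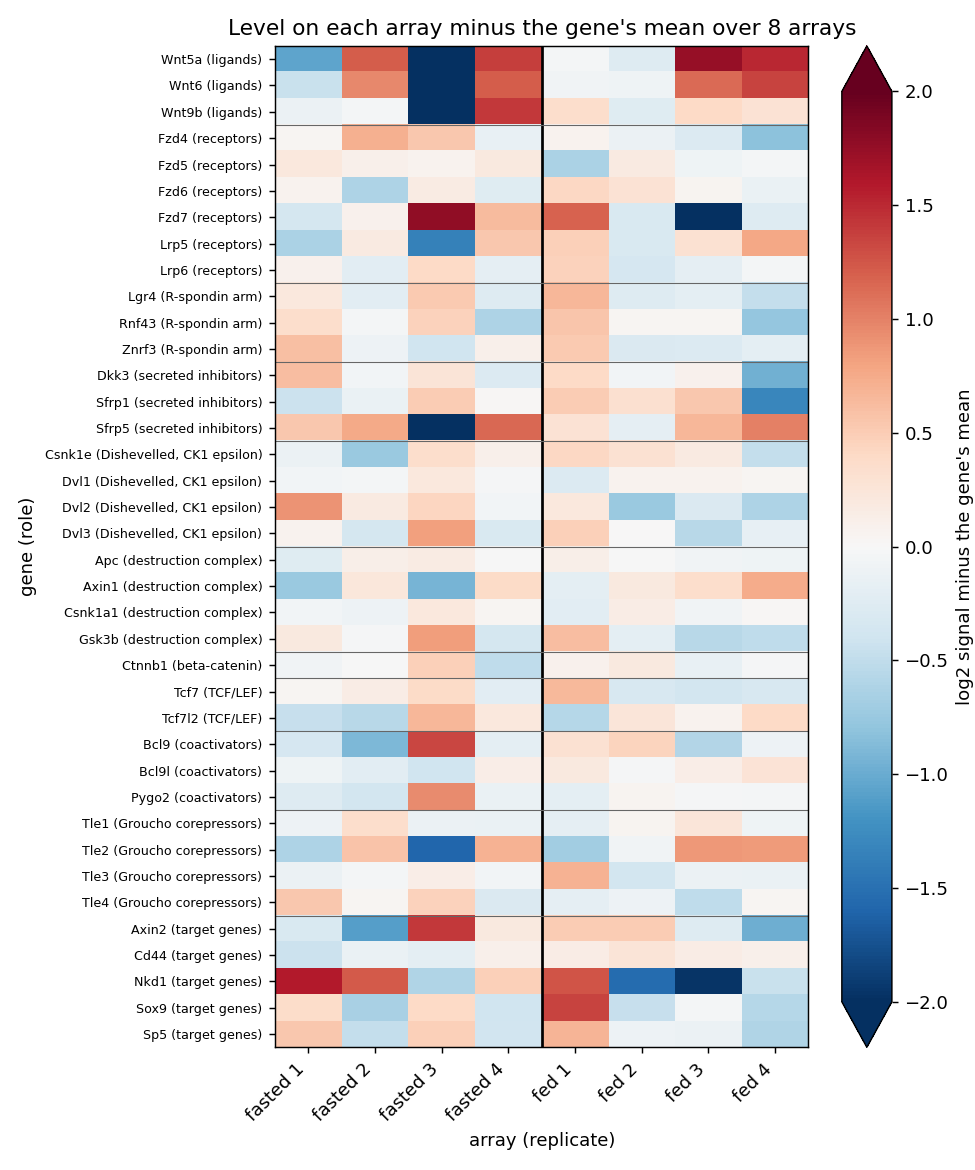
Level of the 38 tested Wnt pathway genes on each array minus the gene's mean over 8 arrays (log2; colours end at 2 in each direction), fasted arrays left of the black line and fed arrays right of it. The fasted replicate 3 column is past the blue end for Wnt5a, Wnt6, Wnt9b and Sfrp5, as is Fzd7 on fed replicate 3, and it holds red cells for Fzd7, Axin2, Bcl9 and Pygo2.

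Much of the members' spread sat in single arrays. Fasted replicate 3 was the lowest of the 8 arrays for 9 members and the highest for 11, which is 20 of 38 (52.6%), against 55.3% of all genes tested. Fed replicate 1 was an extreme for 14 members (36.8%), against 31.7% of all genes. Wnt5a, Wnt6 and Sfrp5 were 3 of the 1273 probes missing on fasted replicate 3 alone. The 4 arrays with the highest share of probes above background were fasted replicates 2 and 4 (65.7% and 64.0%) and fed replicates 3 and 4 (62.3% and 62.8%). Axin1, Wnt5a, Wnt6, Sfrp5 and Tle2 were higher on these 4 than on the rest (13.2% of members, against 18.1% of all genes), and Fzd6, Rnf43, Dvl3 and Sp5 were lower (10.5%, against 7.59%), a split looked for after the values were seen. With that share as a covariate the differences were -0.77 for Axin1, -2.46 for Wnt5a, -2.02 for Wnt6, -1.69 for Sfrp5 and -0.93 for Tle2. They were -0.17 for Fzd6, 0.25 for Rnf43, 0.35 for Dvl3 and 0.29 for Sp5. The lowest adjusted p of any member under any alternative was 0.0675 by limma. It came from this fit, where it was also the smallest over all genes tested. The part of the share in these results was not tested further.

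Slides give a comparison within a batch, with 1 array of each group per slide and hence no replicate error within it. Fasted replicate 2, labelled male, shared its slide with fed replicate 3, labelled female. Fasted replicate 4 shared its slide with fed replicate 4, whose Xist and Eif2s3y went against its female label. Sex may thus enter the differences on these slides, which was not tested. On the 3 slides that held both groups, 5 members were higher on the fasted array each time, Fzd5, Znrf3, Sfrp5, Dvl2 and Nkd1 (13.2%, against 17.9% of all genes). Lower on the fasted array each time were 10 members, Axin1, Lrp5, Lrp6, Fzd6, Wnt5a, Wnt6, Bcl9, Bcl9l, Pygo2 and Cd44 (26.3%, against 21.8% of all genes). For Cd44 the slide differences were -0.59, -0.28 and under 0.01 in size, and for Fzd5 they were 0.84, 0.18 and 0.24. For Axin2 they were -0.81, -0.85 and 1.16. With slide as a random block 4 members, Cd44, Dvl2, Fzd5 and Nkd1, had an unadjusted p under 0.05, against 15.7% of all genes, and none passed adjustment by limma.

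**Figure D5:**
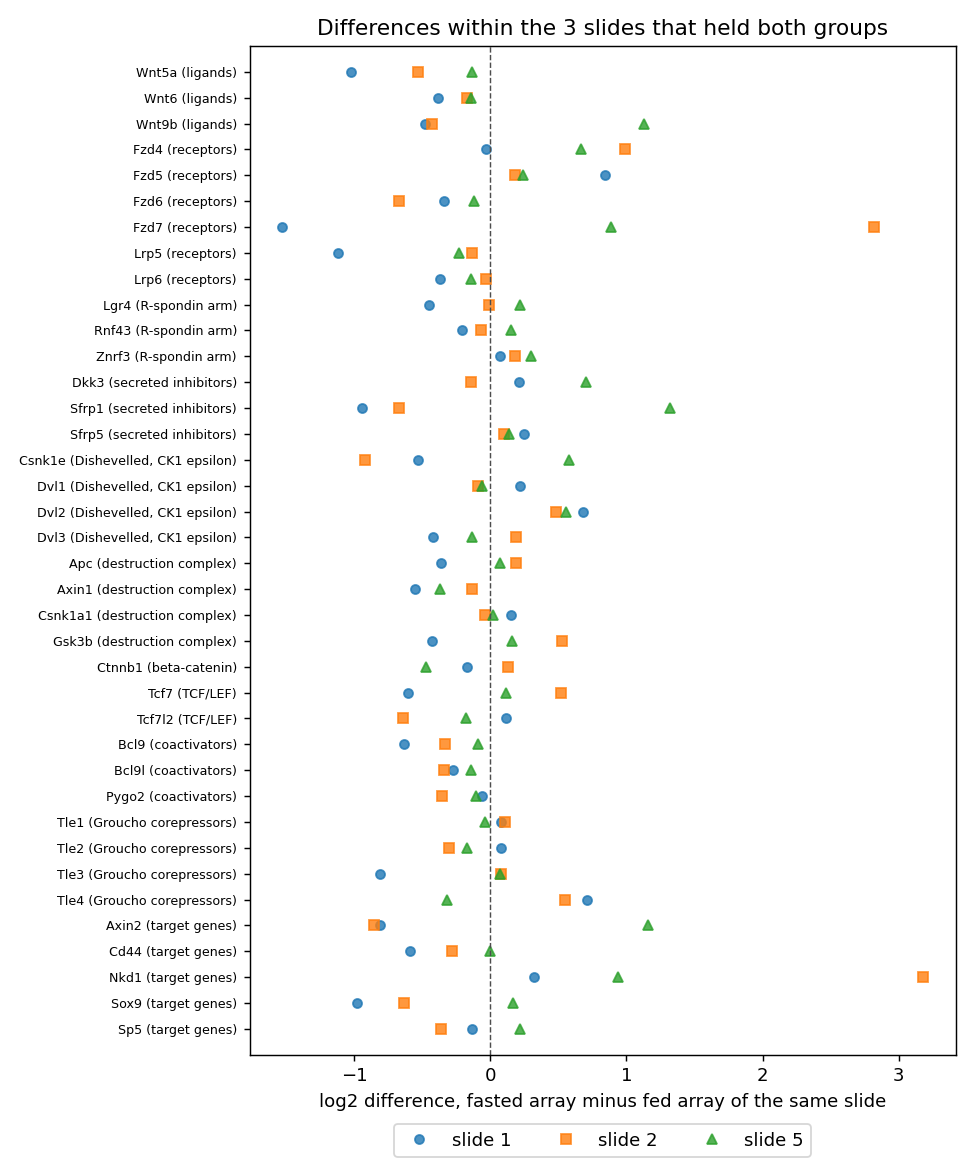
Log2 difference between the fasted and the fed array of the same slide for each tested Wnt pathway gene, on the 3 slides that held both groups. The Dvl2 points lie between 0.48 and 0.68, and those of Fzd7, Axin2 and Sfrp1 fall on both sides of 0. On slide 2 the fasted array was labelled male and the fed array female.

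Other genes of the pathway, from a list of 86 ligands, receptors, regulators and targets, held no call either. Of the 86, 64 were tested, 26 with a higher and 38 with a lower fasted value. Over all genes tested 44.5% had a higher fasted value. The median log2 difference was -0.07 for the list and -0.06 over all genes. None of the 64 passed adjustment by limma, and 2 had an unadjusted p under 0.05, against 5.94% of all genes. Lgr6, a relative of the R-spondin receptor Lgr4, had 0.81, 0.85, -0.82 and 1.12 in fasted crypts, against 2.96, 1.84, 1.12 and 1.93 in fed crypts. The groups met at 1.12, and the difference was -1.47 (SE 0.45; unadjusted p = 0.0106, adjusted p = 0.787 by limma). Wnt16 had -1.24, -0.61, -1.93 and -0.83 in fasted crypts, against -0.25, -0.61, 0.78 and -0.20 in fed crypts, a difference of -1.08 (SE 0.41; adjusted p = 0.787 by limma). Next on the lower side was Tle6, a Groucho relative, at -0.58 (SE 0.26).

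On the higher side the smallest p belonged to Cdc73, a beta-catenin partner in the PAF1 complex, at 0.61 (SE 0.27), Cdca7, at 0.63 (SE 0.29), and Usp34, a deubiquitinase that stabilises Axin, at 0.55 (SE 0.30). Of the 10 other Wnt ligands tested, 2 had a higher fasted value, with a median of -0.62, and on fasted replicate 3 their mean level was -2.96, against -1.58 to -0.78 on the other fasted arrays and -1.46 to -0.49 on the fed arrays. Lgr5, the stem cell receptor that carries the reporter in these mice, Wls, the Wnt carrier, and Rspo1 were well above background on 0 arrays.

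Markers of the cell types in the captured tissue were measured beside these genes. Their lists were chosen with earlier results of these data known, so the counts are a description and not an independent test. All 28 enterocyte markers tested had a higher fasted value, with a median log2 difference of 1.02, and their mean level was 1.32 to 2.62 on the fasted arrays against 0.35 to 1.33 on the fed arrays. Of these 28, 18 had an unadjusted p under 0.05 by limma, where 3.93% of all genes were higher in fasted crypts and past that p. Of 9 Paneth cell markers 1 was higher, with a median of -0.44, at mean levels of 5.19 to 5.64 on the fasted arrays and 5.57 to 6.00 on the fed arrays. Crypt base stem cell markers were higher for 3 of 8, with a median of -0.13 and Lgr5 above background on 0 arrays. Fibroblast and smooth muscle markers, of cells known to make Wnt5a, were higher for 5 of 13, with a median of -0.09, at mean levels of 0.80 to 1.77 on the fasted arrays and 0.39 to 1.58 on the fed arrays. Tuft cell markers were higher for 6 of 6, with a median of 0.42, goblet cell markers for 1 of 7 (-0.18) and enteroendocrine markers for 5 of 8 (0.12). Endothelial markers were higher for 2 of 7 (-0.18), leukocyte markers for 3 of 7 (-0.25) and enteric neuron and glia markers for 3 of 6 (-0.01). An unadjusted limma p under 0.05 was found for 1 Paneth cell and 1 stem cell marker, both lower in fasted crypts. It was also found for 1 tuft cell and 2 fibroblast and smooth muscle markers, all higher in fasted crypts. The goblet, enteroendocrine, endothelial, leukocyte, and neuron and glia lists held 0 such markers. Over all genes tested 5.94% were past that p. None of the markers of any list passed adjustment by limma, and their part in the members' values was not tested.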

How the data were processed

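Per the labels' protocols, Cy5-labelled RNA of laser-captured lower crypts, from 8 mice, went onto Agilent mouse 4x44K v2 arrays. The scanner files deposited by the authors hold intensity values as a processed signal with background removed. Agilent Feature Extraction 11.5.1.1 made them, per the submitters' processing notes. The authors' deposited matrix holds log2 values whose ranks follow that signal (Spearman at least 0.9999 across probes), with column medians from 7.73 to 8.33. Its scaling and centring are unknown, and it served as an alternative. Of 28 array pairs, 0 held identical values.

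Outlier spots were left out, spots of a probe averaged, and each array's 75th percentile subtracted from the log2 signal. No spot was saturated. Of 39429 probes, 27649 took their symbol from a RefSeq table of GRCm38.p6 by accession, a table used for names and promoters only, and 11780 carry the name the files give. Probe positions are mm9. A gene was read from its brightest probe, if that probe exceeded background clearly on 4 or more of the 8 arrays, which held for 19534 genes. These were tested with limma 3.58.1 in R 4.3.3 (lmFit, and eBayes with a mean trend), on group and the labelled sex, and adjusted by Benjamini-Hochberg over all of them. The fit was also run on simulated data with noise independent between arrays. Deviations of the real arrays were correlated, so the simulation cannot show how the fit behaves on them. Samples were grouped by their titles, and the number of arrays limits the precision.

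The members and gene lists were chosen with earlier results of these data known, and p-values were not adjusted over the members alone. Difference, standard error and adjusted p are given for the 6 members with the smallest p in each direction and for 10 central genes, of which Wnt3 could not be tested, and of the other pathway genes for the 3 with the smallest p in each direction. Same-numbered fasted and fed arrays had deviation correlations of 0.371, -0.472, -0.451 and 0.608, and the numbers were not taken to pair the samples. Fasted and fed arrays that shared a slide had 0.371, 0.539 and 0.608. Values were positive between arrays that were both high or both low in the share of probes above background, and negative otherwise. They therefore cannot show whether the numbers pair the samples. Alternatives were other scalings, a normexp background with an offset of 50, other probe rules and filters, leaving out sex, blocks for slide or replicate number, a covariate for the share of probes above background, other variance models, array weights, and leaving out arrays.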

Additional observations from a re-analysis of the deposited data

Results flagged for a closer look

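Among the tested members, 8 of 76 groups of 4 arrays held a value far from the other 3 by Dixon's test. That is 10.5% of the members' groups, against 5.39% of 38811 groups over all genes tested, and chance gives about 1 in 20. On the fasted side, replicate 3 was lowest for Sfrp5 at -5.99, with the others between -1.23 and -0.62, and highest for Dvl1 at 2.04, with the others between 1.77 and 1.80. Fasted replicate 2 was highest for Tle1 at 2.30, with the others between 1.82 and 1.85. On the fed side, replicate 1 was highest for Tcf7 at 0.50 (others -0.51 to -0.46) and for Znrf3 at -1.13 (others -1.94 to -1.85), and lowest for Dvl1 at 1.56 (others 1.86 to 1.90). Fed replicate 2 was lowest for Wnt9b at -1.33 (others -0.80 to -0.69), and fed replicate 4 was lowest for Sfrp1 at -3.20 (others -1.59 to -1.37).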

How the results depend on the processing

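No gene passed the adjusted threshold under any of 24 alternatives, and the members' median difference ran from -0.09 to 0.12. The number of members with an unadjusted p under 0.05 was 0 with no filter on dim probes, 2 with slide as a fixed block (Dvl2 and Nkd1), 4 with slide as a random block and 2 with array weights. It was 8 with the share of probes above background as a covariate, where 27.9% of all genes were past that p. Leaving out 1 array gave 0 to 2 members: Dvl2 was lost without fasted replicate 1 or 3 or without fed replicate 2, 3 or 4, Nkd1 was gained without fed replicate 1, and Cd44 was gained without fasted replicate 4. Replicate number as a block changed no call: 0 genes passed and 1 member, Dvl2, had an unadjusted p under 0.05, against 1116 genes in all. Without the filter 1473 genes had such a p, with the fixed slide block 2558, with the random slide block 3076, with the covariate 5454, with array weights 1906, and without 1 array 482 to 2073.

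The fitted sign held under every alternative run for 12 members, Dvl2, Nkd1, Fzd4, Tle4, Fzd5, Fzd7 and Tcf7 on the higher side and Cd44, Axin1, Lrp5, Bcl9l and Fzd6 on the lower side, and turned for 26. Leaving out sex, the replicate block, the other filters and the other variance models left these members' differences as they were. Those alternatives could not turn a sign. The share of all genes whose sign held was not counted. Turned values with the fixed slide block were -0.17 for Axin2, -0.08 for Lgr4 and -0.04 for Rnf43. With the random slide block they were -0.01 for Lgr4 and -0.03 for Rnf43. With the covariate they were 0.05 for Ctnnb1, 0.02 for Tcf7l2 and 0.11 for Sox9. Tcf7l2 was at 0.05 after quantile scaling and 0.01 in the deposited matrix, Axin2 at -0.04 as the mean of its probes, and Rnf43 at -0.11 with array weights. Without both fasted replicate 3 and fed replicate 4, Wnt5a was at 0.03, Axin2 at -0.66, Lgr4 at -0.16 and Rnf43 at -0.31, and Sox9 was at -0.51 (-0.14 with all arrays). Leaving out 1 array at a time gave -2.31 to 0.04 for Wnt5a, -0.28 to 0.11 for Ctnnb1, -0.41 to 0.52 for Axin2, -0.09 to 0.39 for Lgr4, -0.19 to 0.24 for Rnf43, -0.06 to 0.27 for Znrf3, -0.21 to 0.15 for Tcf7l2 and -0.41 to 0.31 for Sox9. Normexp gave -0.67 for Wnt5a and -0.34 for Ctnnb1, and the authors' deposited matrix -2.41 for Wnt5a. The cause of these turns was not tested. Signal over background limited the 10 untested members and Nkd1, Fzd7, Fzd4, Wnt5a, Wnt6 and Sfrp5, which were not well above background on every array.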
